A study of Homo sapiens with 4 samples.

Results

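A set of 10 genes that the literature reports as direct targets of MTA1 was followed through the MTA1 chromatin immunoprecipitation (ChIP) data of HCT116 cells. They were BCAS3, GNAI2, ESR1, BRCA1, STAT3, TGM2, PAX5, SIX3, COP1 and TFF1, and all 10 were found among the 20037 protein-coding genes of the RefSeq table for GRCh38. The genes were taken from published work and not by a measured value, although earlier results of these data were known when they were chosen. For each gene, every peak with its midpoint inside the gene or within 20 kb of it was taken from both deposited lists. HCT116 is an established epithelial cell line that derives from a carcinoma of the colon. The data came from 4 libraries of this line, for which the labels name no treatment or genetic change: 2 made with an antibody to MTA1 and 2 inputs made without one. Whether the replicates came from separate cultures is not given in the labels. The lists, 1 per replicate, set MTA1 ChIP 1 against control 1 (list 1, 32042 peaks) and MTA1 ChIP 2 against control 2 (list 2, 31079 peaks). A peak's score is the authors' own value, with a median of 64.08 in list 1 and 60.65 in list 2, a lowest value of 50 in both and a scale that is not stated, so scores were read only within a list, with rank 1 for the highest. The lists hold no read counts and no values of the input libraries, so depth, the level in the controls at these genes and the spread between libraries are unknown, and none of the comparisons below has a test. Peaks carry no measure of expression, so the cell type label was not checked against markers.

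MTA1 is a subunit of the NuRD complex, which joins nucleosome remodelling by a CHD ATPase with histone deacetylation by HDAC1 and HDAC2. It is brought to genes largely through partners such as nuclear receptors, and it has been described both as a corepressor and as a coactivator. The genes studied here entered the literature mainly through work on single promoters, much of it in breast cancer cells.

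At the ends of these genes, peaks were few. A list 1 peak had its midpoint within 1000 bp of either annotated end at 2 of 10 genes, GNAI2 and BCAS3 (95% exact binomial interval 2.52 to 55.6%), against 24.3% of all protein-coding genes. A list 2 peak did so at 0 of 10 (upper bound of the interval 30.8%), against 6.28% of all. Inside the gene, 6 of 10 held a list 1 peak (background 43.5%) and 5 of 10 a list 2 peak (background 35.2%). With the 20 kb on either side included, 9 of 10 had a list 1 peak (background 66.0%) and 7 of 10 a list 2 peak (background 59.9%). Overlapping peaks of both lists lay inside or within 20 kb of 1 gene, BRCA1, where the background was 7.64%, and they lay inside it (background 3.43%). No peak of either list lay inside 3 of 10 genes, TFF1, STAT3 and SIX3 (background 42.4%). With 10 genes, shares of this size were not distinguishable from the background at the width of their intervals, which cover counting error only.

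**Figure D1:**
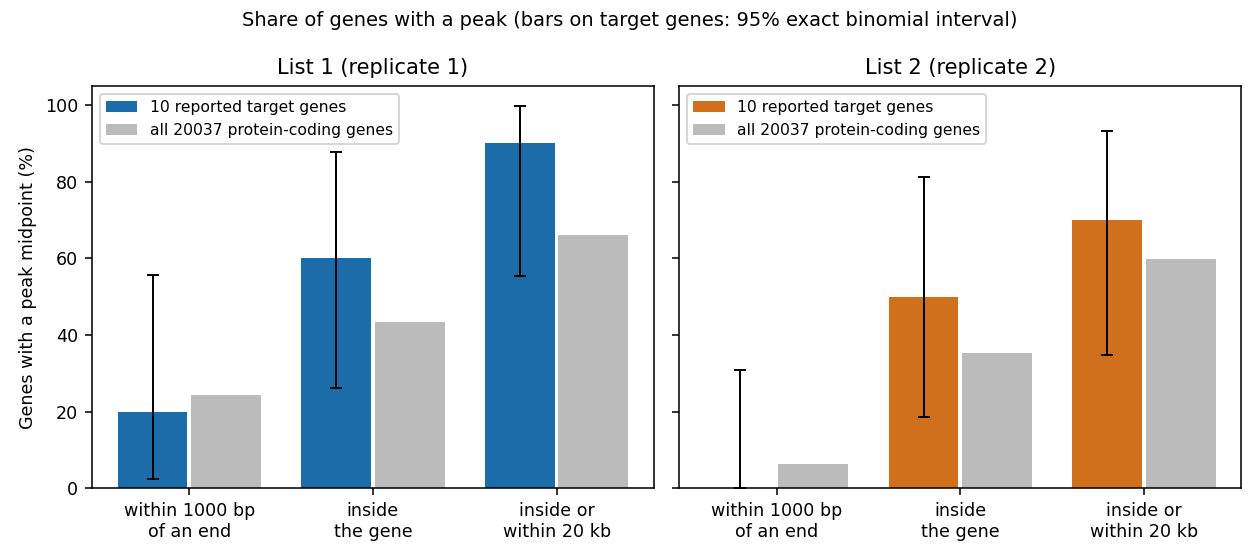
Share of genes (percent, y axis) with a peak midpoint at an end, inside, or inside or within 20 kb, for the 10 reported targets (coloured bars with 95% exact binomial intervals) and all 20037 protein-coding genes (grey bars), in list 1 and list 2. Every grey bar lies within the interval of the coloured bar beside it.

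Over all genes, the share with a peak inside was higher for longer genes. The 10 genes run from 4.25 kb (TFF1) to 715 kb (BCAS3), and 4 of them are 200 kb or longer. Among all protein-coding genes of 200 kb or longer, 79.7% held a list 1 peak and 86.6% a list 2 peak, and of the 4 targets of that length (ESR1, BCAS3, PAX5 and COP1) 3 and 4 did. Among genes under 10 kb, 23.4% held a list 1 peak and 5.2% a list 2 peak, and neither of the 2 targets of that length (TFF1 and SIX3) held any. Per 100 kb of gene, the targets together held 1.50 list 1 peaks and 2.38 list 2 peaks, against 1.53 and 1.26 over all protein-coding genes. BCAS3 alone decided the list 2 value, since the other 9 genes together held 0.984 list 2 peaks and 1.15 list 1 peaks per 100 kb. In all, 48 list 1 peaks and 57 list 2 peaks lay inside or within 20 kb of the targets.

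**Figure D2:**
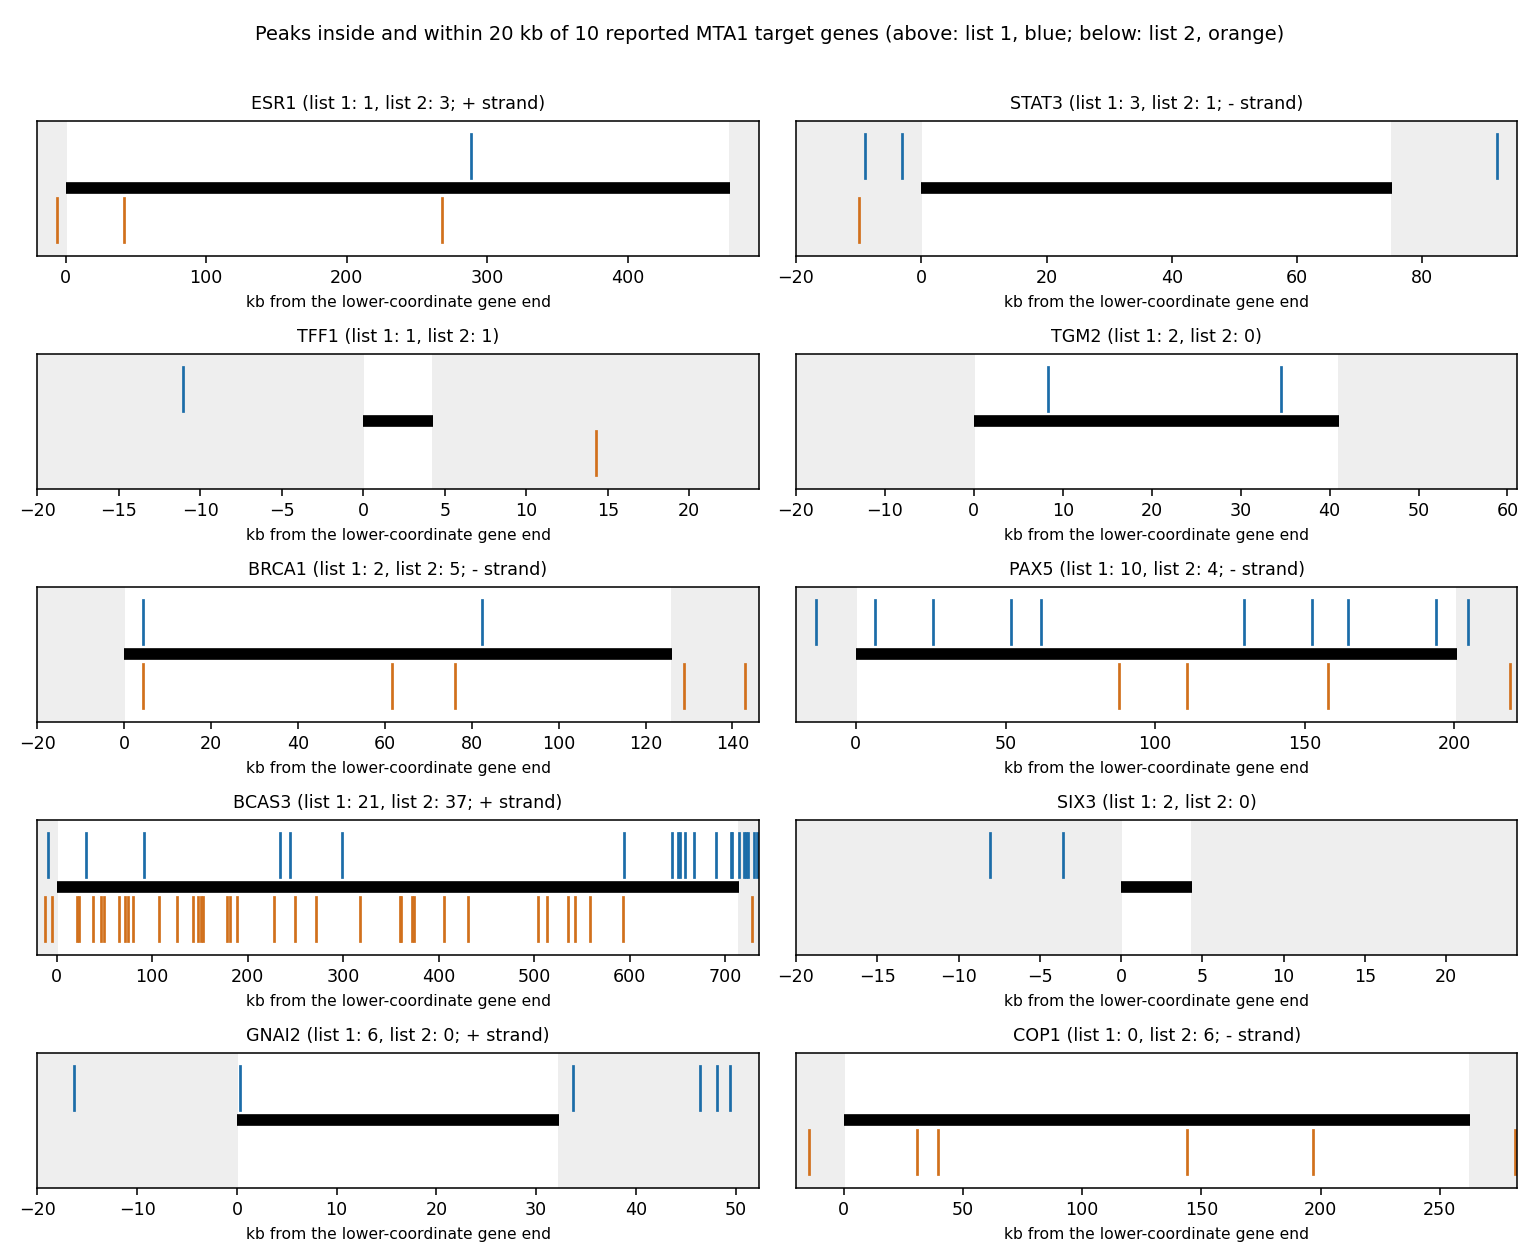
Position of every peak midpoint along the 10 genes, in kb from the lower-coordinate gene end (x axis), with the gene as a black bar, the 20 kb on either side shaded, list 1 above the gene and list 2 below. COP1 has peaks of list 2 alone, while GNAI2, TGM2 and SIX3 have peaks of list 1 alone. The share of all genes with peaks of 1 list alone is not given here.

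Among the genes tied to the estrogen receptor, ESR1, which encodes the receptor itself, was sparsely covered. ESR1 (gene ID 2099) spans chr6:151656672-152129619 on the + strand, 473 kb. It held 1 list 1 peak, at 151944890 to 151945227, with a score of 55.17 (rank 24415). In list 2 it held 2 peaks, with scores of 58.66 (rank 17754) and 56.48 (rank 20429), and another list 2 peak, of score 75.64 (rank 5713) lay 6236 bp before its outermost start. The replicates therefore marked different places of the gene, where 3.51% of all list 1 peaks overlapped a list 2 peak. No peak lay at an end. Its 0.211 list 1 and 0.423 list 2 peaks per 100 kb placed it at rank 1056 and rank 1011 among the 1399 genes of 200 kb or longer, where the medians were 0.482 and 0.814. ESR1 has 6 listed transcript starts, and the shortest gap from a list 1 peak to any of the 300-base windows around them was 135733 bp.

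TFF1, a secreted trefoil peptide gene and a classical estrogen response gene, held no peak. TFF1 (gene ID 7031) spans chr21:42362282-42366535. The list 1 peak closest to it, with a score of 58.18 (rank 21264), lay 11052.5 bp below its lower end and 235.5 bp from an end of TFF2, the neighbouring trefoil gene. The list 2 peak closest to it, with a score of 54.98 (rank 22691), lay on the other side, 10010.5 bp above the gene and inside TMPRSS3, a gene for a serine protease. Both scores were below the median of their list.

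BRCA1, a DNA repair gene that MTA1 is reported to repress, was the only target where both replicates called the same place. BRCA1 (gene ID 672) spans chr17:43044295-43170327 on the - strand, 126 kb. A list 1 peak at 43048497 to 43048859 (score 52.38, rank 28482) lay wholly within a list 2 peak at 43048386 to 43048869 (score 77.63, rank 5055), an overlap of 363 bp. The midpoint of the list 2 peak was 4332.5 bp inside the gene's 3′ end and 76736.5 bp from the nearest listed start, and the list 1 score was close to the lowest of its list. Over all peaks on chromosomes 1 to 22, X and Y, 3.51% of list 1 peaks and 3.62% of list 2 peaks overlapped the other list. Whether the stretch is exonic or intronic was not determined, because the annotation used here gives gene ends only.

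None of the other 5 BRCA1 peaks covered either of its 2 listed starts. The outer start coincides with the gene's 5′ end, and the best-ranked peak of the neighbourhood, a list 2 peak of score 101.52 (rank 1199) at 43172719 to 43173377, lay 2721 bp beyond it, inside NBR1, an autophagy receptor gene. The inner start, at position 43125364, is divergent with the start of the long non-coding gene NBR2. A list 1 peak at 43126096 to 43127024 (score 51.90, rank 29100) began 481 bp past the window of that start, on its upstream side and within NBR2. A list 2 peak of score 92.87 (rank 2027) lay on the other side, inside BRCA1 and 4734 bp from the same window. Further list 2 peaks had scores of 73.57 (inside BRCA1, 19418 bp from the nearest listed start) and 75.61 (inside NBR1, 16903.5 bp from it). The bases upstream of the inner start are shown because that list 1 peak came nearer to this window than any other peak came to a listed window of the 10 genes. They run 5′ to 3′ towards the start and come from RefSeq (GRCh38.p14, chr17:43125365-43125614, minus strand), with their 15 CpG pairs in capitals.
BRCA1 inner start: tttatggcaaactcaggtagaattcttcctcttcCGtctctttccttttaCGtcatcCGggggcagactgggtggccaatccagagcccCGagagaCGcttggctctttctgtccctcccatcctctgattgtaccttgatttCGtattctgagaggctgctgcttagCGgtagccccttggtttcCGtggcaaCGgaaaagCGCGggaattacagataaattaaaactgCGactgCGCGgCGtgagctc

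BCAS3, a gene first described as amplified in breast cancer and reported as an MTA1-coactivated gene, held more peaks than the other 9 genes together in list 2. BCAS3 (gene ID 54828) spans chr17:60677851-61392831 on the + strand, 715 kb. It held 15 list 1 peaks and 34 list 2 peaks, and none of them overlapped. Over all peaks, overlap was rare as well (3.51% of list 1 and 3.62% of list 2 peaks). Their positions along the gene differed between the replicates, by a division of the gene that was not planned beforehand and was not tested. In list 1, 9 of the 15 peaks fell in the final 10% of the gene, 71.5 kb before its 3′ end, where list 2 had 0 of 34. In list 2, 22 of the 34 lay in the first 50% of the gene, and in list 1 it was 5 of 15. The closest approach of the replicates inside the gene was a gap of 474 bp, between a list 2 peak of score 110.81 (rank 721) and a list 1 peak of score 52.33 (rank 28551).

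**Figure D3:**
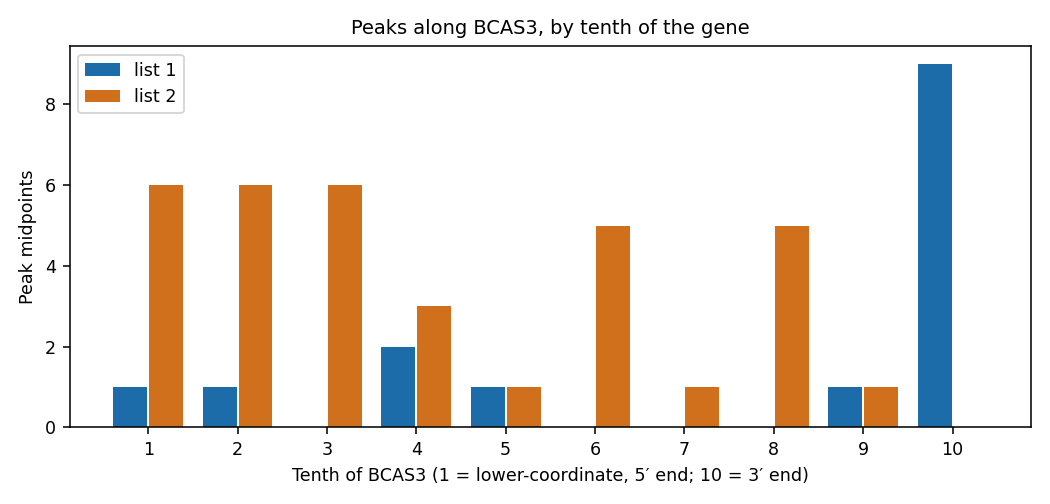
Number of peak midpoints (y axis) in each successive 10% of BCAS3 from its 5′ end to its 3′ end (x axis), for list 1 (blue) and list 2 (orange). List 1 has 9 of its 15 peaks in the last stretch, where list 2 has none.

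With 4.76 list 2 peaks per 100 kb, BCAS3 ranked 9 among the 1399 genes of 200 kb or longer, and with 2.10 list 1 peaks per 100 kb it ranked 138. Chromosome 17 as a whole stood high in both lists. Inside its protein-coding genes there were 2.10 list 2 peaks per 100 kb, the highest of 24 chromosomes, and 3.45 list 1 peaks, at rank 3 of 24. BCAS3 thus lay above its chromosome in list 2 and below it in list 1. The copy number of chromosome 17 in these cells was not analysed here, and its part in these densities was not tested. The best-ranked list 2 peaks inside BCAS3 had scores of 113.75 (rank 626), 111.57 (rank 699) and 110.81 (rank 721), and lay 72.1, 153 and 593 kb from its 5′ end. The best-ranked list 1 peak inside had a score of 99.08 (rank 4134) and lay 24238.5 bp before the 3′ end.

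The 1 peak that counted as lying at an end of BCAS3 belonged to list 1 and to its 3′ end. It spanned 61391701 to 61392642, with a score of 58.18 (rank 21264), and its midpoint was 659.5 bp inside the gene. It was the first of 6 list 1 peaks in a stretch of 20.7 kb that runs past the 3′ end and across TBX2-AS1 and TBX2, a gene for a T-box transcriptional repressor. Their scores ran from 58.18 to 114.70 and their widths from 673 to 2643 bp, against a median width of 712 bp in list 1. The best of them, at 61409880 to 61412381 (score 114.70, rank 2497), covered the listed start of LINC02875, a long non-coding gene. List 2 had 1 peak in that stretch, inside TBX2, with a score of 56.81 and a gap of 953 bp to the nearest list 1 peak. Closest to the 5′ end were a list 2 peak of score 92.30 (rank 2088) 4783 bp before the start and a list 1 peak of score 66.16 (rank 14405) 9022.5 bp before it. The bases before that start (RefSeq, GRCh38.p14, chr17:60677601-60677850, plus strand) hold 1 match to GGTCA, the core of the estrogen response element, in capitals as its reverse complement TGACC.
BCAS3: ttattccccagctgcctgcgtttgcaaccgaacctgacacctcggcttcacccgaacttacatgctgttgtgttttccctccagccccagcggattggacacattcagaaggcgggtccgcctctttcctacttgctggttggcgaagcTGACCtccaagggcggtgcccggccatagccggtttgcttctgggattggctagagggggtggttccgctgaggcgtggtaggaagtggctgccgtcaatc

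**Figure D4:**
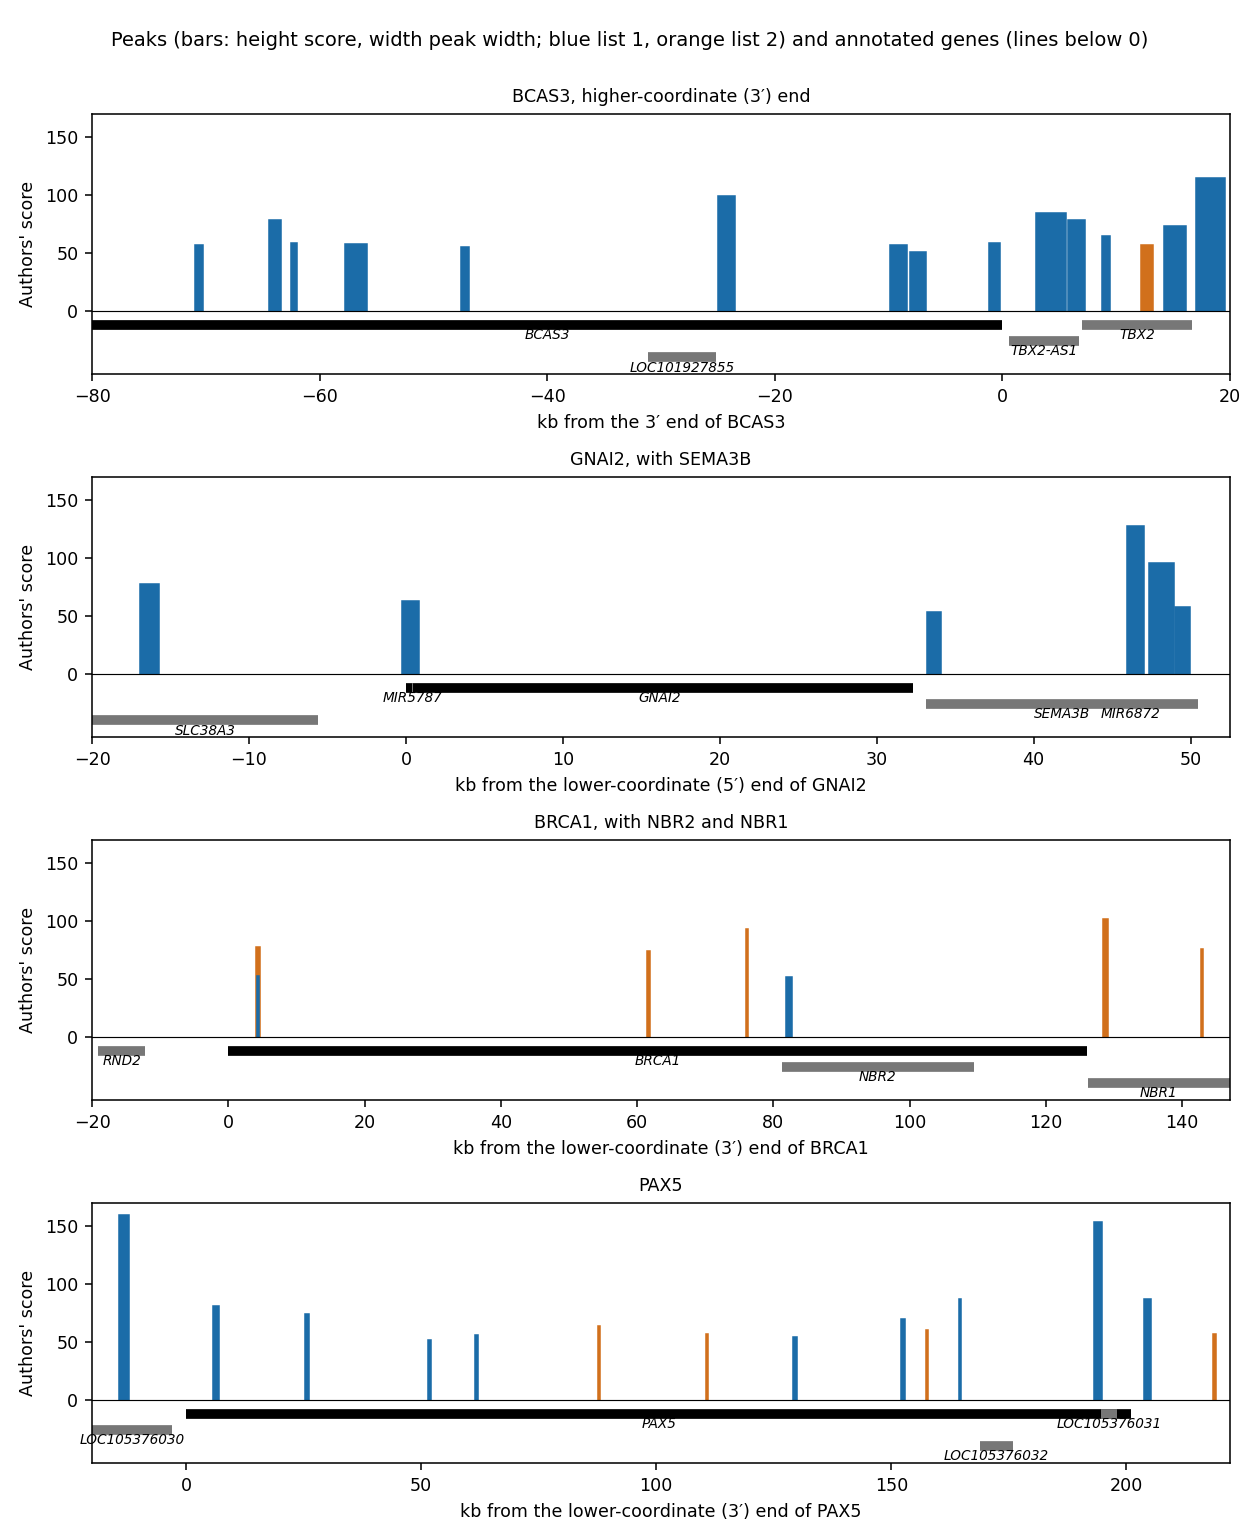
Peaks of list 1 (blue) and list 2 (orange) around the 3′ end of BCAS3 and around GNAI2, BRCA1 and PAX5, with bar height the authors' score (y axis, scale not stated), bar width the peak width (outlines widen the narrowest bars slightly) and annotated genes as lines below 0, in kb from the gene end named on each x axis. The highest bars near BCAS3 and GNAI2 lie outside these genes, beyond TBX2 and in SEMA3B, and the place where both colours coincide is near the 3′ end of BRCA1.

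Of the signalling genes and enzymes, GNAI2, which encodes an inhibitory G protein alpha subunit, was the only target with a peak at its 5′ end. GNAI2 (gene ID 2771) spans chr3:50227068-50259362 on the + strand, 32.3 kb. The list 1 peak there spanned 50226787 to 50227909, with a score of 63.13 (rank 16622, just below the median of list 1), and its midpoint was 280 bp inside the outermost end. List 2 had no peak inside GNAI2 or within 20 kb of it. The peak held the whole microRNA gene MIR5787, at chr3:50227436-50227490, which lies within GNAI2 on the same strand. Its mature product is shown because it is sequence from under the peak, with the seed (bases 2 to 8) in capitals, from RefSeq (GRCh38.p14).
hsa-miR-5787: gGGCUGGGgcgcggggaggu

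The 3 transcript starts listed for GNAI2 lay further in, and none had a peak. The gap between the peak and the nearest window of 300 bases around a listed start was 2377 bp. Among the 15 windows listed for 7 of the 10 genes, that window alone holds a pair of matches to GGTCA. Both are in the part before the start (chr3:50230287-50230536, plus strand), where they are in capitals.
GNAI2: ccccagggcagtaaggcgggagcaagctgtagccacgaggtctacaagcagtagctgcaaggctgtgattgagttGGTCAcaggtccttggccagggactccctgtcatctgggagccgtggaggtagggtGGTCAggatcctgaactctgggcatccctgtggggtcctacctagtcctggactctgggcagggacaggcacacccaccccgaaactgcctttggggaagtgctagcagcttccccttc

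A further 4 list 1 peaks lay beyond the 3′ end of GNAI2 in SEMA3B, a gene for a secreted semaphorin. Their scores were 53.56, 127.83, 95.94 and 57.52, and the nearest to GNAI2 was 1348 bp away, at the start of SEMA3B. The best of them (rank 1673), at 50272992 to 50274070, covered part of 2 windows around inner starts of SEMA3B and the microRNA gene MIR6872. On the other side a list 1 peak of score 77.67 lay in SLC38A3, an amino acid transporter gene. Further out, 33.5 kb above GNAI2, stood a list 1 peak of score 447.45 (rank 25) that overlapped a list 2 peak of score 59.96 (rank 16205) by 542 bp, 13 bp from an end of HYAL3, a hyaluronidase family gene.

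STAT3, the transcription factor activated by interleukin-6 family cytokines, held no peak of either list. STAT3 (gene ID 6774) spans chr17:42313324-42388442 on the - strand, 75.1 kb. Among all genes of 50 to 200 kb, 58.5% held a list 1 peak and 64.2% a list 2 peak. The peaks within 20 kb all lay in neighbours. Below the gene, list 1 peaks of score 57.99 and 51.07 lay in STAT5A, a related transcription factor gene, and a list 2 peak of score 51.79 (rank 27806) lay 273 bp from the first of these. Above it a list 1 peak of score 63.22 lay in CAVIN1, a caveola coat gene, 16826 bp from the 5′ end of STAT3. Overlapping peaks of both lists appeared further away. A pair with scores of 56.47 in list 1 and 65.83 in list 2 lay 24.5 kb below STAT3. Its midpoint was inside STAT5A and 405.5 bp from an end of STAT5B. Another pair, with 155.59 (rank 807) and 55.41 (rank 22105), lay within STAT5B at 36.9 kb. The bases before the STAT3 start (chr17:42388443-42388692, minus strand), shown as those of a target promoter with no peak within 16244 bp, hold 1 match to GGTCA, in capitals.
STAT3: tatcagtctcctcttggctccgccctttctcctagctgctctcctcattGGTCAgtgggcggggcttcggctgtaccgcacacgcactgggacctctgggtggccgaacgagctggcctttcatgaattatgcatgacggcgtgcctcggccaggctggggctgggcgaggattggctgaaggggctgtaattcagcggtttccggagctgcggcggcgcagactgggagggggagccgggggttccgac

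TGM2, the gene of tissue transglutaminase, an enzyme that cross-links proteins, held 2 list 1 peaks and no list 2 peak. TGM2 (gene ID 7052) spans chr20:38127385-38168475, 41.1 kb. The peaks lay 8366 bp above its lower end, with a score of 62.67 (rank 16915), and 6515.5 bp below its higher end, with a score of 57.05 (rank 22401). Both scores were below the list 1 median. Among genes of 10 to 50 kb, 42.3% held a list 1 peak and 30.0% a list 2 peak. Both targets of that length, TGM2 and GNAI2, held list 1 peaks alone.

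Of the developmental transcription factors, PAX5, which maintains B cell identity, had the best-ranked list 1 peaks of all 10 genes. PAX5 (gene ID 5079) spans chr9:36833269-37034268 on the - strand, 201 kb. It held 8 list 1 peaks, with a lowest score of 51.84, a median of 71.80 and a highest of 153.56, and 3 list 2 peaks, with scores of 63.37, 59.85 and 56.40. No list 1 peak overlapped a list 2 peak, where 3.51% of list 1 peaks did so over all. Its 3.98 list 1 peaks per 100 kb ranked 46 among the 1399 genes of 200 kb or longer, and its 1.49 list 2 peaks ranked 299. The best-ranked peak near it (score 159.03, rank 737), at 36819060 to 36821130, lay 13174 bp beyond the 3′ end in the long non-coding gene LOC105376030. The best-ranked peak inside it (score 153.56, rank 857), at 37026456 to 37028142, lay 6969 bp downstream of the 5′ end. A list 1 peak of score 86.58 lay 3456.5 bp upstream of the same end. The 5′ end itself, which is the only start listed for PAX5, was in the gap between them.

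The strong interior PAX5 peak covered the whole listed start window of LOC105376031, a long non-coding gene within PAX5 that runs on the opposite strand. The bases before that start (RefSeq, GRCh38.p14, chr9:37027695-37027944, plus strand) are shown because they lie wholly under the peak. They hold 22 CpG pairs, in capitals, and no match to GGTCA. The full window of 300 bases has a GC content of 69.7%, above the upper quartile of 68.0% over the 35116 windows of the promoter table. Its CpG count of 25 is below the upper quartile of 28.
LOC105376031: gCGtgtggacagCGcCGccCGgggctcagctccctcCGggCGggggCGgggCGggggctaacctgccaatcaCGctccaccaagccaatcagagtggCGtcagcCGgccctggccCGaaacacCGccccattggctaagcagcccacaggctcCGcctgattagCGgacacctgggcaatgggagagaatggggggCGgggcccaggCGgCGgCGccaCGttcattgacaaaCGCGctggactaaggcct

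SIX3, a homeobox gene of the forebrain and eye that MTA1 is reported to repress, held no peak and had 2 list 1 peaks on 1 side. SIX3 (gene ID 6496) spans chr2:44941702-44946071, 4.37 kb. The nearer peak, at 44937287 to 44938952 (score 102.72, rank 3651), lay 3582.5 bp below the gene, and the other (score 75.87, rank 9698) lay 8095.5 bp below it. Both were inside LINC01833, a long non-coding gene, and the nearer one covered 114 bases of the window around a listed start of it. Both scores were above the list 1 median. List 2 had no peak within 20 kb of SIX3.

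COP1, an E3 ubiquitin ligase that targets p53 and c-Jun for degradation, showed the opposite pattern, with list 2 peaks alone. COP1 (gene ID 64326) spans chr1:175944831-176207286 on the - strand, 262 kb. It held 4 list 2 peaks, with scores of 63.75, 61.66, 57.18 and 53.85, and 2 further ones lay within 20 kb, with scores of 62.22 and 58.36. The best-ranked of the 6 was at rank 12588. The nearest of them to the 5′ end lay 19076.5 bp upstream of it, within COP1-DT, a long non-coding gene on that side. No list 1 peak lay inside COP1, against 79.7% of genes of 200 kb or longer that held one, and none came within 72405 bp of the window around its start.

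Pooled over the genes and the 20 kb on either side, the scores lay near the median of their list. The 48 list 1 peaks had a median score of 62.90 (50.55 to 159.03), and 45.8% of them were in the better-scoring 50% of the list. The 57 list 2 peaks had a median of 62.38 (51.73 to 113.75), and 54.4% of them were in the better-scoring 50%. BCAS3 alone supplied 21 of the 48 and 37 of the 57. The genes differed, since inside the gene only PAX5 and BCAS3 held a list 1 peak in the better-scoring 50%. With the 20 kb on either side included, SIX3 and GNAI2 had one too. For list 2, COP1, PAX5, BRCA1 and BCAS3 held such a peak inside, and ESR1 had one within 20 kb. Among the best 1000 of the 32042 list 1 peaks were 2 of the 48, in or near PAX5. The better-ranked of them lay 13174 bp outside that gene. Among the best 1000 of the 31079 list 2 peaks were 3 of the 57, all inside BCAS3. Of the 8 other genes with a list 1 peak, the best peak ranked from 1673 (GNAI2) to 28482 (BRCA1). Of the 48 list 1 peaks, 1 overlapped a list 2 peak, where the share over all list 1 peaks was 3.51%. A list 2 peak lay within 500 bp of 3 of them, at BRCA1, BCAS3 and beside STAT3. For that distance no share over all peaks is given here.

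**Figure D5:**
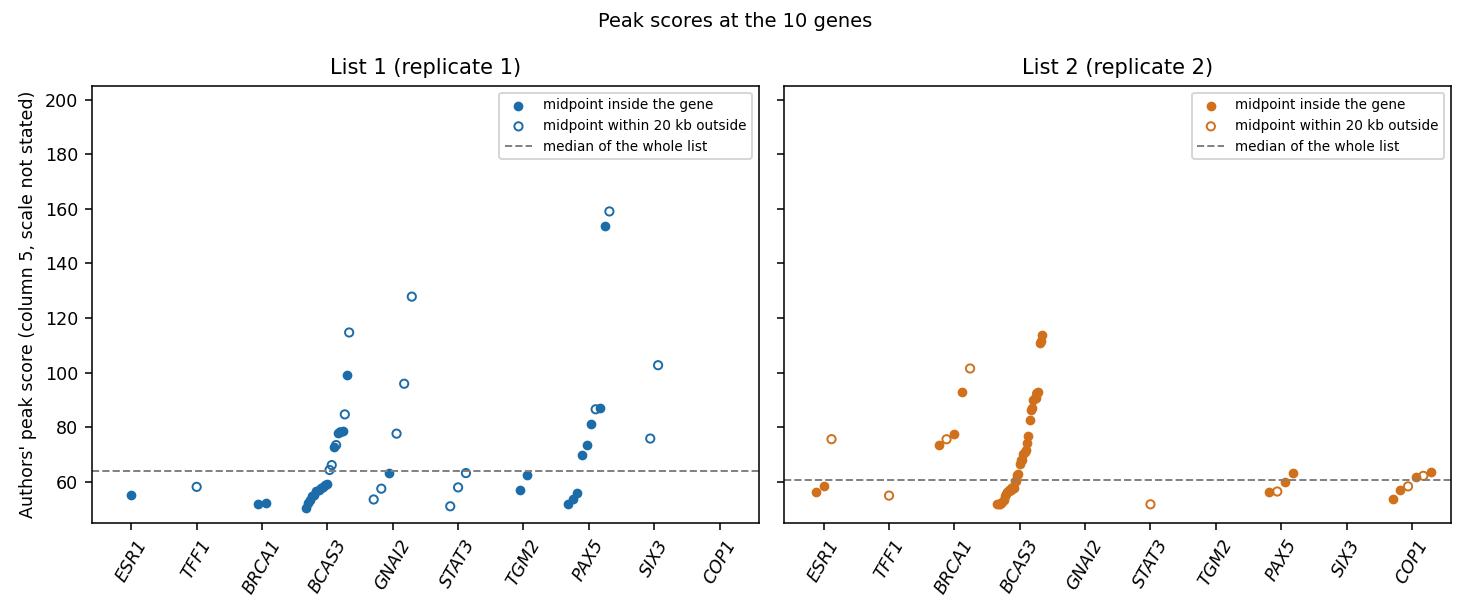
Authors' score (y axis, scale not stated) of each peak inside (filled) or within 20 kb outside (open) each of the 10 genes, for list 1 and list 2, with the median of the whole list as a dashed line. PAX5 and GNAI2 have the 3 highest list 1 peaks (159.03, 153.56 and 127.83), and BCAS3 has the highest list 2 peak (113.75).

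Many of these peaks belonged to another annotated gene as much as to the target. Of the 19 list 1 peaks outside the targets, 15 had their midpoint inside a neighbouring gene, and 7 of the 11 list 2 peaks did. These counts include non-coding genes. Over the whole lists, 19336 of 32042 list 1 and 15940 of 31079 list 2 peaks lay inside a protein-coding gene. Their share with non-coding genes included is not given here. In list 1, 5 peaks overlapped the window of 300 bases around a listed transcript start, and 0 of those starts belonged to a target. That 0 depends on which starts are listed. The outermost 5′ end of GNAI2, which a list 1 peak covered, is not among them. The promoter table listed 15 windows for 7 of the 10 targets, and TGM2, SIX3 and TFF1 had no entry. Neither list had a peak over any of the 15 windows, where the share over all 35116 windows was 13.1% in list 1 and 2.15% in list 2. ESR1 alone supplied 6 of the 15, some of them close together, so the windows do not count as 15 separate places. The shortest gap was 481 bp in list 1 and 2141 bp in list 2, both at BRCA1.

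In base composition, the 15 windows had medians close to those of all windows. Their GC content had a median of 58.3% (36.3 to 72.0%) against 58.7% over all windows, and their CpG count had a median of 13 (4 to 34) against 14. The 6 ESR1 windows, with GC contents from 36.3 to 59.7%, weigh heavily in these medians, which are not medians per gene. The core of the estrogen response element, GGTCA, was searched on both strands and was present in 5 of 15 windows, 1 each at BCAS3, BRCA1, ESR1, GNAI2 and STAT3, and in 37.4% of all windows. The full estrogen response element, a palindrome of that core, was in 0 of 15 and in 0.057% of all. TGANTCA, the AP-1 motif, was in 1 (GNAI2) and in 7.71% of all. The zinc finger factor motif GATAA was in 1 (the inner BRCA1 window) and in 22.7%. The motif TTCNNNGAA, to which STAT proteins bind, was in 2 (both ESR1) and in 7.66%. These were searched on both strands too. These matches describe the letters of the windows alone.

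A further 3 lists, compiled with earlier results of these data known, were counted in the same way. Of 10 other genes studied with MTA1, 3 had a list 1 peak at an end (24.3% of all protein-coding genes), namely WNT1 (score 75.78), TWIST1 (66.05) and SNAI1 (58.00), and 0 had a list 2 peak there (6.28% of all). Of 12 partners and targets of the estrogen receptor, 3 had a list 1 peak at an end, namely NCOA3, a receptor coactivator (score 113.59, rank 2577), GREB1 (93.00) and CTSD (69.30), and again 0 had a list 2 peak. Both lists were thus near the share over all genes. Of 8 genes of the STAT3 pathway, STAT5B had peaks of both lists at an end, with scores of 56.47 and 65.83. They are the pair that also lies below STAT3, with its midpoint inside STAT5A. Inside the gene, a list 1 peak was found at 6 of 10, 6 of 12 and 4 of 8 genes of these lists, where 43.5% of all genes had one. A list 2 peak was found inside 2 of 10, 2 of 12 and 3 of 8, where it was 35.2% of all. Overlapping peaks of both lists inside or within 20 kb (7.64% of all genes) were found at 0 of 10, 0 of 12 and 2 of 8, the last being IL6R and STAT5B, and the difference between these lists was not tested.

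For the 3 targets with the most peaks inside, the genes with the most similar length and peak counts were identified over both lists. They were HPSE2 (859 kb, 12 list 1 and 28 list 2 peaks) and ATRNL1 (856 kb, 8 and 26), both on chromosome 10, for BCAS3. For PAX5 they were KDM2B (8 and 3) and PARVB (8 and 3), and for BRCA1 they were SLC20A2 (2 and 3) and NRG4 (2 and 3). The likeness was the sum of absolute differences in log2 length and in log2 counts with 1 added, and was 0.84 and 1.46 for BCAS3, 0.21 for both PAX5 neighbours and 0.01 for both BRCA1 neighbours. Of the 3 targets, BCAS3 had the largest distance to its most similar gene.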

How the data were processed

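Sonicated chromatin of HCT116 cells was sequenced in paired-end mode with and without MTA1 immunoprecipitation, per the labels' protocols. The submitters' processing notes name cutadapt, Bowtie2 and the build GRCh38, with no versions. The deposited lists give each peak's position and, in column 5, a score from the authors' peak caller. Peak names have the form that MACS writes, and the caller's version and thresholds were not given in the sources used here. The lists name their comparison sample as a control, taken here as the input of the same number. Peaks were called per replicate, so each list rests on 1 ChIP library, and depth is unknown.

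Gene ends came from a RefSeq table of GRCh38.p14 with 1 row per gene, and strand, transcript starts and sequences from RefSeq tables of promoters (250 bases before to 50 after a start) and microRNAs. Positions were made 1-based, midpoints and ranks were computed with Python 3.11.15 and pandas 2.3.3 over each whole list, and lists were compared by an overlap of at least 1 bp. Intervals are 95% exact (Clopper-Pearson) and cover counting error only. The code was tested on simulated data. Alternatives varied windows, flanks, overlap, score and annotation. All 10 genes are named, with every peak at an end and the best-ranked of each list elsewhere, the genes over or nearest to those peaks, the 2 most similar genes for 3 targets, and up to 4 members of each further list. The genes and lists were chosen with earlier results of these data known. STAT5B and HYAL3 pairs beyond 20 kb were picked after their values were seen. The division of BCAS3 along its length and the stretch of list 1 peaks past its 3′ end were not planned beforehand.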

Additional observations from a re-analysis of the deposited data

How the results depend on the processing

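Of 30 alternatives, 20 left the number of targets within 1.5 times the main count and 10 moved it. The 2 targets with a list 1 peak at an end became 1 with a window of 500 bp (GNAI2, background 16.7%), 0 in the better-scoring 50% of the list (16.4%), 1 with the 5′ end alone over the 7 targets with a listed strand (GNAI2, 20.1%), and 0 with any listed transcript start, an alternative chosen after seeing the data (22.7%). In list 2 the count of 0 became 1 with a window of 3000 bp (BRCA1, background 15%). Of the list 1 counts, 6 targets with a peak inside became 2 (PAX5 and BCAS3, 29.4%), and 9 within 20 kb became 4 (49.5%), in the better-scoring 50%. BRCA1, the 1 target with overlapping peaks, was lost there (0, background 3.05%) and joined by GNAI2 and STAT3 with a flank of 50 kb (3, background 12%). Leaving out a replicate, the 2 targets with an end peak in either list ranged from 0 to 2, since both peaks are in list 1. No paired analysis was possible because no result comes from a test and the lists hold no values per library. What depth limits could not be judged, since no read counts were analysed here.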
